A study of Mus musculus with 6 samples.

Results

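The 8 genes Foxa1, Foxa2, Foxa3, Cebpa, Cebpb, Onecut1, Prox1 and Gata4 encode transcription factors of the hepatocyte lineage, and they were taken by name from the 25078 genes of the deposited tables. All 8 were found in both the count table and the RPKM table (reads per kilobase of exon, scaled to the size of the library after TMM normalization). They were followed by RNA-seq through 6 libraries of Hepa1-6, an established mouse hepatoma line of C57/L origin, to see how midnolin knockdown bears on them. The groups were 1 library of untransduced parental cells (wt), 2 of cells carrying a scramble vector (scr 25-2 and scr 50-1) and 3 of cells carrying a midnolin shRNA vector (knockdown 25-3, 50-2 and 50-5). Both vectors were delivered by lentivirus and selected with puromycin, and single-cell-derived colonies were then isolated, so each scr or knockdown library may stand for 1 clone. Titles of the knockdown libraries read KO, but their treatment is given as shRNA. The labels name neither the clone behind a library nor what 25 and 50 mean, nor do they say that libraries of a group came from separate cultures. Tests thus measure the spread between these libraries, which may include that between clones and may be partly technical.

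FOXA proteins are winged-helix pioneer factors that open liver enhancers, and the C/EBP proteins are leucine zipper factors, of which C/EBPα holds hepatocytes in a differentiated, resting state while C/EBPβ serves the acute phase response and regeneration. Onecut1 (also known as HNF6) is a cut-homeodomain factor of hepatocyte and bile duct development, Prox1 is a homeodomain factor that hepatoblasts need to leave the liver bud, and Gata4 is a zinc finger factor of early endoderm and heart. Such factors act as a network in which several bind each other's genes. RNA-seq reports their transcripts only, not protein or binding.

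Total counts lay between 25586301 and 33119710 reads per library. The targeted gene, Midn, had an RPKM of 59.6 and 50.8 in the scr libraries, 20.3 to 22.1 in the knockdown libraries and 60.5 in wt, and it fell by 1.38 on the log2 scale (standard error, SE, 0.133, FDR 0.00777 by the quasi-likelihood test of edgeR). Without knockdown 50-2 the FDR of Midn was 0.0525 in the same test. Of 8 hepatocyte markers, Alb, Trf, Fgb and Apob were above an RPKM of 1 in all 6 libraries, whereas Ahsg stayed under 1 and Serpina1a had 0 counts throughout. Their summed RPKM was 3959 in wt, 2709 and 3595 in the scr libraries and 153 to 733 in the knockdown libraries. Alb made up most of the scr sums, whereas Trf overlapped between the groups and Apob was higher in the knockdown libraries. Over all 5 endothelial markers the sum reached 0.163 in scr, 0.358 in knockdown and 2.88 in wt, where it was almost wholly Pecam1 (2.85). The leukocyte sum (3.06 and 4.81 in scr, 6.38 to 9.46 in knockdown, 3.65 in wt) was almost wholly Cd68, with Cd3e at 0. The biliary sum of 6 markers was 565 in scr 25-2, 204 in scr 50-1, 379 to 554 in knockdown and 234 in wt. Most of it was Spp1 (508, 169, 341 to 519 and 183 in the same order), while Krt19 and Cftr stayed under 1. Of the 4 biliary markers tested, Krt7 was called lower in knockdown cells (5.23% of all genes tested were), and Sox9, Spp1 and Epcam were not called. The stellate cell sum of 409 to 594 in the transduced libraries and 1030 in wt was almost wholly Dcn, while Col1a1, Col3a1, Lum and Pdgfrb stayed under 1. In bulk RNA, fewer cells of a type and less RNA per cell cannot be told apart.

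Promoter windows of 300 bases, from 250 before to 50 after the start of the gene, were given by RefSeq (GRCm38.p6, the build of the deposited tables) for 7 of the 8 genes. For Foxa2, with 3 windows, and Prox1, with 2, only the window at the gene start of the deposited tables was used. The 7 windows were searched on both strands for short letter strings tied to the factors themselves. The FOXA string was TGTTTAC and that of ONECUT proteins was ATTGAT. C/EBP proteins were given the strings TTGCGCAA and TTGCNNCAA, and no string in the search contained another. The strings for the zinc finger family of Gata4 were AGATAA and, in its other form, TGATAA. The 4 windows shown are those of the genes whose RNA is compared most closely below, Foxa1 with the largest difference, Foxa2 with the smallest, and Cebpa and Onecut1, whose knockdown libraries were farthest apart; capitals mark the matches.
Foxa1, chr12:57546062-57546361, minus strand: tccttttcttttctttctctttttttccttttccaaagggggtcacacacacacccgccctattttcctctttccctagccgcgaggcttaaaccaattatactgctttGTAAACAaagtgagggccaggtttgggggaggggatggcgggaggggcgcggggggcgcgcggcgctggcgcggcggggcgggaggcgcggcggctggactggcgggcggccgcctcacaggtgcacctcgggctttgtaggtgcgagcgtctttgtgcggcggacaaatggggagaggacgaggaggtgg
Foxa2, chr2:148046920-148047219, minus strand: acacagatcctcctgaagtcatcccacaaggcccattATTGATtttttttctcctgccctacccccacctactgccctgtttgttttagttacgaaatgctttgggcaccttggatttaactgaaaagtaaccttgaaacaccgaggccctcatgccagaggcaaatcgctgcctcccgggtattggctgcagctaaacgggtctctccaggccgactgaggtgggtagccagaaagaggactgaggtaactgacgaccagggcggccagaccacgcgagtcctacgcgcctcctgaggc
Cebpa, chr7:35119043-35119342, plus strand: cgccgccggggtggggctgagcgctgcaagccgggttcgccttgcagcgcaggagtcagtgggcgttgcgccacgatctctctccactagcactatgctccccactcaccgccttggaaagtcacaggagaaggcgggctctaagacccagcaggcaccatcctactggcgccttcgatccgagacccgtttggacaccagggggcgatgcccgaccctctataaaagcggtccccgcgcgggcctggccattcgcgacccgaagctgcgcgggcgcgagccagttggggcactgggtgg
Onecut1, chr9:74861671-74861970, plus strand: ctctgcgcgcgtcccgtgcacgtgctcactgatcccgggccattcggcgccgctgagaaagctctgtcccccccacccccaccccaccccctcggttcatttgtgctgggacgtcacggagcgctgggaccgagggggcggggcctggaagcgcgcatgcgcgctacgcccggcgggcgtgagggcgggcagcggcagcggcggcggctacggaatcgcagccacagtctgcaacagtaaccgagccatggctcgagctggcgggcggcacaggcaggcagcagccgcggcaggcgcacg
The Foxa1 window held 1 FOXA string, read on the opposite strand and beginning at -141 from the start site, a string present in 3.65% of the 32851 windows of this length. The Foxa2 window held 1 ONECUT string at -213, present in 7.54% of all windows. No other string was found in any of the 7 windows, and the further windows of Foxa2 and Prox1 were not searched. For comparison, 0.183% and 2.08% of all windows held the C/EBP strings and 11.2% and 9.05% the GATA strings. A match of letters does not show binding, and its absence says only that these letters are not in the window. The windows were rich in G and C, from 54.3% in Foxa2 to 80.7% in Cebpb, against a median of 52.7% over all windows. They held 12 CpG dinucleotides in Foxa2 and 50 in Cebpb, against a median of 7.

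The levels of the 8 transcripts fell into an upper and a lower set. By median RPKM over the 6 libraries the order was Foxa2 (29.8), Cebpb (29.4), Foxa3 (24.6), Prox1 (7.53), Gata4 (7.05), Foxa1 (5.13), Onecut1 (5.05) and Cebpa (4.85). Within every library, Foxa2, Cebpb and Foxa3 each exceeded all of the other 5. Pooled over the libraries, the ranges of neighbours in this order overlapped, also those of Foxa3 and Prox1, which were apart within each library. Cebpa varied most between libraries, 11.8-fold from lowest to highest, followed by Foxa1 (7.58-fold) and Onecut1 (6.42-fold). Foxa2 (1.37-fold) and Gata4 (1.54-fold) varied least.

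**Figure D1:**
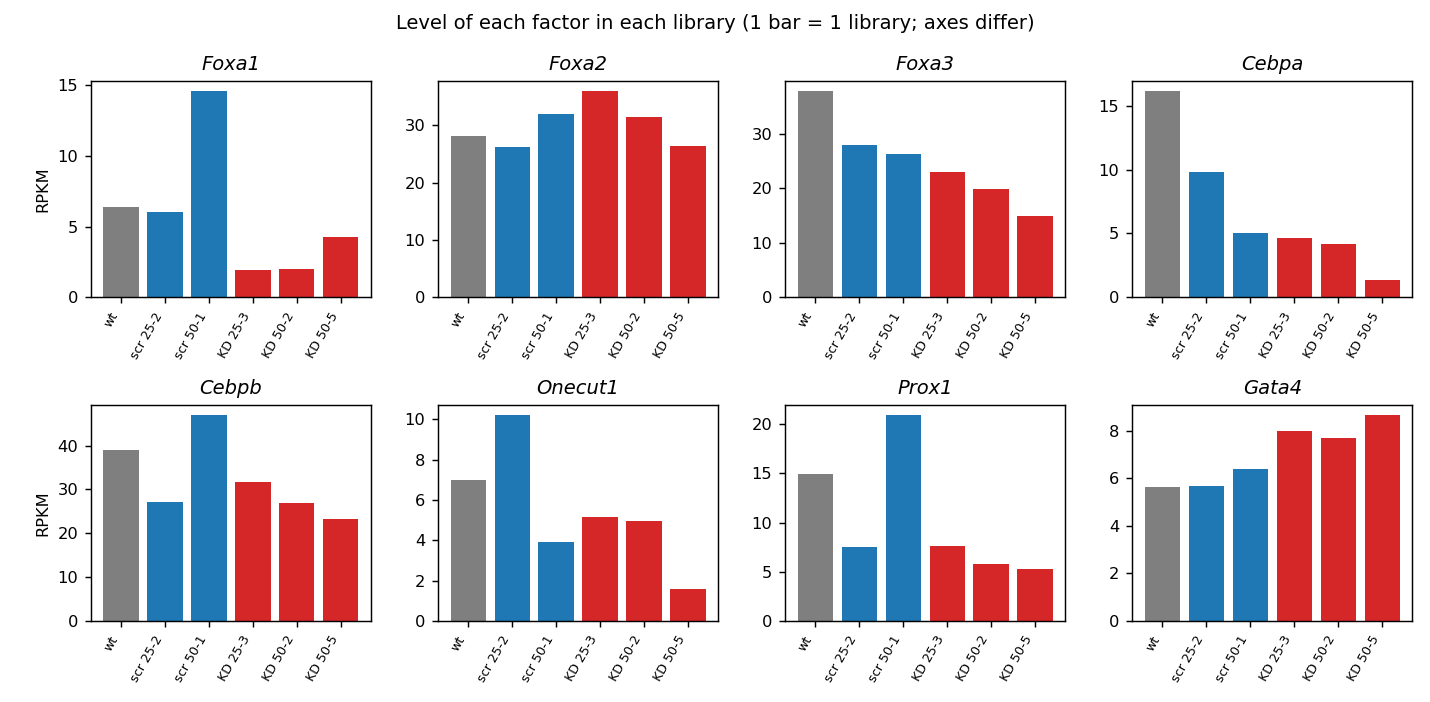
RPKM of each factor in each of the 6 libraries (wt grey, scr blue, knockdown red, written KD), 1 bar per library and a separate axis from 0 for each gene. Foxa1 is lowest in knockdown 25-3 and 50-2, Cebpa and Onecut1 are lowest in knockdown 50-5, and Gata4 is higher in all 3 knockdown libraries than in any other.

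The question of the comparison is whether knockdown cells carry different levels of these transcripts from scr cells. None of the 8 genes passed the thresholds of an FDR under 0.05 and a fold change of at least 1.5 in the edgeR quasi-likelihood test of 3 knockdown against 2 scr libraries, while 10.6% of the 11577 genes tested did (5.4% higher and 5.23% lower). All 8 had passed the expression filter, which asked that 1 or more of the compared libraries exceed an RPKM of 1. An unadjusted p under 0.05 was reached by 4 of the 8 and by 3641 of all genes tested. The estimates were negative for 6 of the 8, with a median log2 fold change of -0.69 against -0.01 over all genes tested. RPKM ranges of the knockdown and scr libraries did not overlap for Foxa1, Foxa3, Cebpa and Gata4, which is 4 of 8, as in 50.2% of all genes tested. By DESeq2, 2 of the 8 were called, Foxa1 and Prox1, against 20.1% of all genes, and by limma on log2 RPKM none was called with either pseudocount.

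Foxa1 (chromosome 12 of mm10, 57540628 to 57546111), one of the FOXA pioneer factors, had the largest difference. RPKM values were 5.99 (scr 25-2) and 14.6 (scr 50-1) in control cells, against 1.92, 1.99 and 4.27 in knockdown 25-3, 50-2 and 50-5 and 6.40 in wt. All knockdown libraries lay below both scr libraries and wt, but scr 50-1 stood 2.43-fold above scr 25-2 (95% interval 2.20 to 2.69 for counting error only). The mean RPKM was 10.3 ± 6.05 (SD, n = 2 libraries) in scr and 2.73 ± 1.33 (SD, n = 3) in knockdown cells. The log2 fold change was -1.92 (SE 0.514, 95% interval -3.19 to -0.65 before adjustment, FDR 0.0676, edgeR). It passed the thresholds when scr 25-2 was left out (-2.41, FDR 0.0239) and, barely, when wt was added to the controls (-1.72, FDR 0.0499), fits in which 19.9% and 14.1% of all genes were called. Without scr 50-1 it was -1.15 (FDR 0.175), in a fit that called 11.3% of genes. In knockdown 25-3 and 50-2 alone against scr, it was -2.40 (FDR 0.0785) where 3.01% of genes were called.

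Foxa2 (chromosome 2, 148042877 to 148046969), which with Foxa1 starts liver development in the foregut, varied least over the 6 libraries. Its RPKM was 26.2 and 31.9 in the scr libraries, 35.9, 31.4 and 26.4 in knockdown 25-3, 50-2 and 50-5, and 28.1 in wt, so the groups overlapped. The estimate was 0.09 on the log2 scale (SE 0.176, edgeR FDR 0.764), and its 95% interval of -0.34 to 0.53 leaves room for changes of up to these sizes in either direction. The sign turned when knockdown 25-3 (-0.024) or scr 25-2 (-0.027) was left out.

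Foxa3 (chromosome 7, 19013283 to 19023539), the FOXA factor most tied to the mature liver, had an RPKM of 27.98 and 26.3 in the scr libraries, 23.0, 19.9 and 14.9 in knockdown 25-3, 50-2 and 50-5, and 37.7 in wt. The knockdown libraries lay below both scr libraries, and wt lay above every other library. Knockdown minus scr came to -0.51 on the log2 scale (SE 0.201, 95% interval -1.01 to -0.01 before adjustment, FDR 0.153, edgeR). Leaving out single libraries gave -0.66 to -0.35. The 2 scr libraries differed by 1.06-fold, which was within the counting interval of 0.992 to 1.14.

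Within the FOXA family, the shares of Foxa2 and Foxa1 did not overlap between knockdown and scr libraries, while that of Foxa3, the total and the RPKM of Foxa2 itself did. Foxa2 made up 58.0% to 59.0% of the summed FOXA RPKM in the 3 knockdown libraries, 43.6% and 43.8% in the scr libraries and 38.9% in wt. Foxa1 made up 9.95% and 20.0% in the scr libraries and 3.16%, 3.74% and 9.38% in knockdown 25-3, 50-2 and 50-5, with wt, at 8.86%, inside the knockdown range. Foxa3 made up 46.5% and 36.2% in scr 25-2 and 50-1, 37.8%, 37.4% and 32.6% in the knockdown libraries and 52.2% in wt. The summed RPKM was 60.2 and 72.7 in scr, 45.5 to 60.8 in knockdown and 72.3 in wt. These shares were compared by their ranges alone, and RPKM ranges did not overlap in 50.2% of all genes tested.

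**Figure D2:**
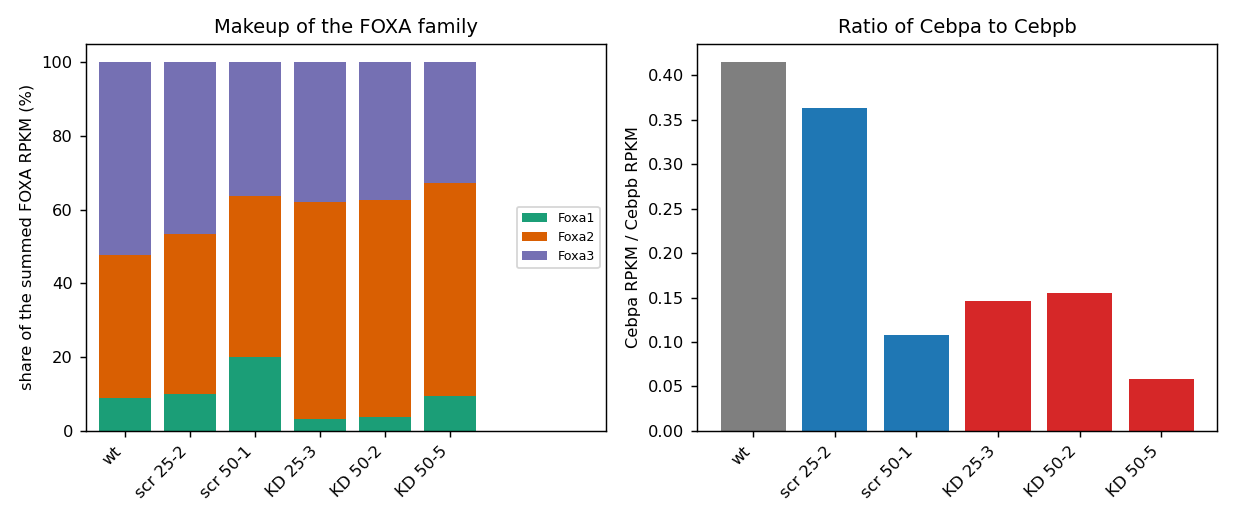
Left, share of the summed FOXA RPKM (percent) taken by Foxa1, Foxa2 and Foxa3 in each library. Right, RPKM of Cebpa divided by that of Cebpb in each library (wt grey, scr blue, knockdown red, written KD). Foxa2 takes 58.0% to 59.0% in knockdown and 43.6% to 43.8% in scr libraries, while the ratio of Cebpa to Cebpb in the knockdown libraries lies on both sides of that in scr 50-1.

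Cebpa (chromosome 7, 35119293 to 35121931, a gene without introns in this annotation) reached RPKM values of 9.82 (scr 25-2) and 5.07 (scr 50-1) in control cells. It was 4.63, 4.19 and 1.36 in knockdown 25-3, 50-2 and 50-5 and 16.1 in wt, the highest of all. The groups did not overlap, but knockdown 25-3 lay close under scr 50-1, and knockdown 50-5 was 3.24-fold below the mean of the other two knockdown libraries. An estimate of -1.15 on the log2 scale was obtained (SE 0.560, 95% interval -2.54 to 0.23, FDR 0.2203, edgeR). Leaving out single libraries moved it from -1.55 (without scr 50-1) to -0.58 (without scr 25-2), with -0.77 without knockdown 50-5.

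Cebpb (chromosome 2, 167688915 to 167690432, also without introns) had an RPKM of 27.0 and 47.0 in the scr libraries, 31.7, 27.0 and 23.2 in knockdown 25-3, 50-2 and 50-5, and 38.9 in wt. The groups overlapped, since scr 25-2 was level with knockdown 50-2 and below 25-3. On the log2 scale the difference was -0.45 (SE 0.264, 95% interval -1.10 to 0.20, FDR 0.297, edgeR), -0.78 without scr 25-2 (FDR 0.0498, called) and 0.00051 without scr 50-1. The ratio of Cebpa to Cebpb RPKM was 0.415 in wt and 0.363 in scr 25-2, but 0.108 in scr 50-1 and 0.146, 0.155 and 0.0587 in knockdown 25-3, 50-2 and 50-5. By this ratio scr 50-1 sat among the knockdown libraries and scr 25-2 beside wt.

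Onecut1 (chromosome 9, 74861921 to 74889647) reached RPKM values of 10.2 (scr 25-2) and 3.91 (scr 50-1) in control cells, 5.14, 4.96 and 1.59 in knockdown 25-3, 50-2 and 50-5, and 7.01 in wt. Knockdown 25-3 and 50-2 lay between the scr libraries. For Onecut1 the estimate was -0.88 on the log2 scale (SE 0.617, 95% interval -2.40 to 0.65, FDR 0.378, edgeR), -1.40 without scr 50-1 and -0.003 without scr 25-2. Like Cebpa, Onecut1 was higher in scr 25-2 than in scr 50-1 (2.61-fold, counting interval 2.22 to 3.08, against 1.94-fold for Cebpa, 1.71 to 2.20) and far lower in knockdown 50-5 than in the other knockdown libraries (3.17-fold below their mean).

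Prox1 (chromosome 1, 190118035 to 190170827) reached RPKM values of 7.49 (scr 25-2) and 20.9 (scr 50-1) in control cells, 7.57, 5.79 and 5.25 in knockdown 25-3, 50-2 and 50-5, and 15.0 in wt. Knockdown 25-3 lay just above scr 25-2, so the groups overlapped. For Prox1 the estimate was -1.21 on the log2 scale (SE 0.423, 95% interval -2.25 to -0.16 before adjustment, FDR 0.120, edgeR). It hung on the scr library, at -1.75 without scr 25-2 (FDR 0.00833, called) and -0.28 without scr 50-1 (FDR 0.446). An unnamed locus on the opposite strand, LOC102632463, overlaps Prox1, but it had only 1 to 19 counts against 1455 or more for Prox1.

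Gata4 (chromosome 14, 63198914 to 63245271) had libraries that lay within 1.13-fold of each other in both groups. Its RPKM was 5.69 and 6.40 in the scr libraries, 7.998, 7.70 and 8.67 in knockdown 25-3, 50-2 and 50-5, and 5.63 in wt. All 3 knockdown libraries lay above the other 3. The mean RPKM was 6.04 ± 0.498 (SD, n = 2) in scr and 8.12 ± 0.498 (SD, n = 3) in knockdown cells. The log2 fold change was 0.41 (SE 0.152, 95% interval 0.04 to 0.79 before adjustment, FDR 0.132, edgeR), a 1.33-fold difference and so below the fold threshold as well. Leaving out single libraries gave 0.35 to 0.50.

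**Figure D3:**
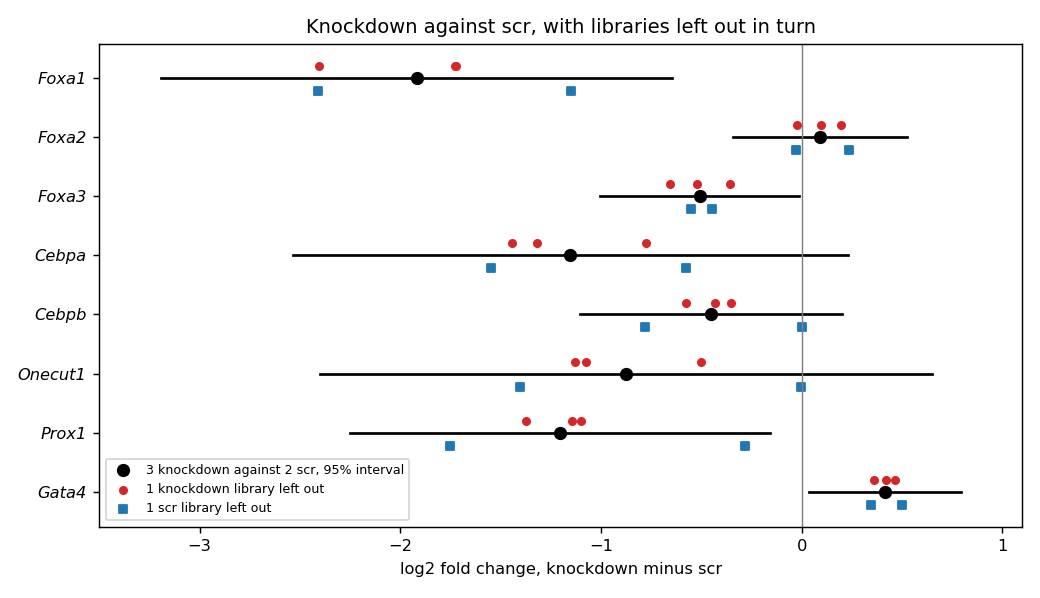
Log2 fold change of each factor, knockdown minus scr, in the edgeR fit of 3 knockdown against 2 scr libraries (black point, line for the 95% interval before adjustment), with 1 knockdown library left out (red circles) or 1 scr library left out (blue squares). The blue squares of Prox1 lie at -1.75 and -0.28 and those of Onecut1 at -1.40 and -0.003, while those of Gata4 lie at 0.35 and 0.50.

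The spread inside the scr group was large for these genes. The 2 scr libraries were at least 1.5-fold apart in 5 of the 8 (62.5%), namely Foxa1, Cebpa, Cebpb, Onecut1 and Prox1, against 29.6% of the genes tested, a description of 2 libraries with no test. The direction was mixed, with Prox1 (2.80-fold, counting interval 2.65 to 2.95), Foxa1 and Cebpb (1.74-fold, 1.62 to 1.87) higher in scr 50-1, and Onecut1 and Cebpa higher in scr 25-2. The highest and the lowest knockdown library were at least 1.5-fold apart in 4 of the 8, Cebpa (3.40-fold), Onecut1 (3.23-fold), Foxa1 (2.22-fold) and Foxa3 (1.55-fold), against 24% of all genes. In each of these 4, knockdown 50-5 was the library that stood away from the other two. Knockdown 25-3 and 50-2 were within 1.31-fold of each other in every member. Over 9830 genes with an RPKM over 1 in all libraries, the median absolute log2 difference was 0.158 between this pair, 0.181 and 0.199 between either and 50-5, and 0.290 between the scr libraries.

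**Figure D4:**
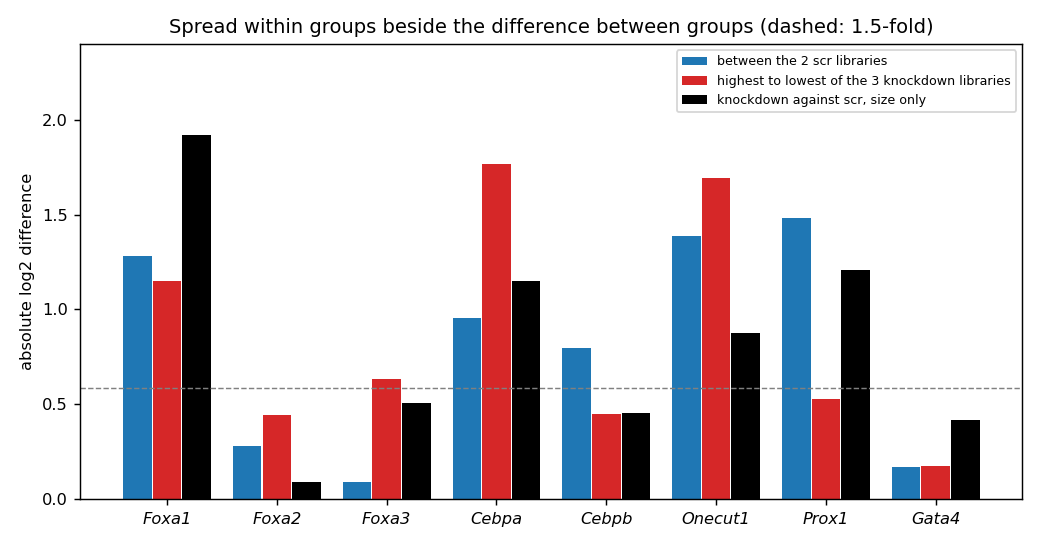
Absolute log2 difference for each factor between the 2 scr libraries (blue), between the highest and the lowest of the 3 knockdown libraries (red), and between knockdown and scr in the edgeR fit (black); the dashed line is 1.5-fold. The black bar is the tallest of the 3 for Foxa1 and Gata4 only; for the other 6 a spread within a group was as large or larger.

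The wt library lay inside the scr range for Foxa1, Foxa2, Cebpb, Onecut1 and Prox1. It was outside for Cebpa, at 2.17-fold of the scr mean, for Foxa3, at 1.39-fold, and, by a small margin, for Gata4. It was not tested, being a single library. Genes within 5 Mb of each member, 23 to 71 tested genes per window, had median log2 fold changes between -0.22 and 0.17. Between the scr libraries, the medians of the windows lay between -0.10 and 0.18.

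Relatives of the members and the genes around them were followed by fixed lists, chosen with earlier results of these data known. Of 12 relatives in the C/EBP, ONECUT, PROX and GATA families, 4 were tested and none was called, with a median log2 fold change of -0.27, and 8 did not reach an RPKM of 1 in any compared library, among them Gata1, Gata2, Gata3, Gata5 and Gata6. Gata4 was thus the sole GATA factor above that level. An unadjusted p under 0.05 was reached by 1 of the 4. Over all 11577 genes tested, 3641 reached it and 10.6% were called. Cebpg, a C/EBP protein that lacks an activation domain, had an estimate of 0.16 on the log2 scale (FDR 0.553, edgeR), and Ddit3, the stress-induced C/EBP protein CHOP, had one of -0.10 (FDR 0.855). Of 18 other liver transcription factors, 13 were tested and none was called, against the same 10.6%, with a median of 0.11. Among these 13, 2 had an unadjusted p under 0.05, against the same 3641 of 11577. Hhex, the homeobox factor of the liver bud, had a log2 fold change of 0.32 (FDR 0.394, edgeR).

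Among the members' 9 tested partners, 2 were called, both higher in knockdown cells, where 5.4% of all genes tested were called higher. An unadjusted p under 0.05 was reached by 6 of the 9, against 3641 of the 11577 genes tested. Trib1, a pseudokinase that brings C/EBPα to the COP1 ubiquitin ligase, had an RPKM of 38.9 and 25.1 in the scr libraries, 72.1, 91.8 and 98.5 in knockdown 25-3, 50-2 and 50-5, and 43.6 in wt. It rose by 1.44 on the log2 scale (SE 0.254, edgeR FDR 0.0272). Tle3, a Groucho corepressor of a family that binds FOXA proteins, had an RPKM of 9.09 and 12.2 in scr, 23.8, 19.8 and 23.6 in the knockdown libraries, and 12.6 in wt. Tle3 rose by 1.06 (SE 0.184, edgeR FDR 0.0256). In both genes every knockdown library lay above every other library, and both lost the call when any 1 knockdown library was left out (FDR 0.0707 to 0.106 for Trib1 and 0.0818 to 0.0940 for Tle3), with log2 fold changes still at 1.34 and 1.01 or more. With the number in the titles as an added term, the FDR was 0.0583 and 0.0507. Tle1, Tle2 and Tle4, relatives of Tle3 named after their values were seen, had log2 estimates of -0.76, -0.62 and -1.01. None was called (edgeR FDR 0.131, 0.356 and 0.0768), and the groups overlapped in Tle2. In Tle1 the highest knockdown RPKM (5.95) lay just under the lowest scr value (6.00), with 10.8 in scr 50-1 and 8.90 in wt. In Tle4 the knockdown libraries (9.92 to 12.6) lay below scr (29.0 and 15.2), but wt (12.1) lay inside the knockdown range. The list as a whole had 5 positive and 4 negative estimates and a median of 0.04.

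Trib2, which also acts on C/EBPα and is named here after its values were seen, had a negative estimate that was not called. Its RPKM was 1.85 and 14.2 in the scr libraries, 1.33, 1.24 and 0.425 in knockdown 25-3, 50-2 and 50-5, and 7.68 in wt, an estimate of -3.01 on the log2 scale (SE 0.886, edgeR FDR 0.0818). Its knockdown libraries lay below both scr libraries, but knockdown 25-3 was much closer to scr 25-2 than the scr libraries were to each other.

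Of 22 liver genes with textbook FOXA or C/EBP sites, 10 were tested, 1 was called (lower), 8 had negative estimates and the median log2 fold change was -2.17. The 1 call in 10 is close to the 10.6% of all genes tested, and 7 of the 10, among them Apob with a positive estimate, had an unadjusted p under 0.05, against 3641 of the 11577. Hepatocyte genes such as Pck1, Otc, Fabp1 and Asgr1 were at an RPKM under 1 throughout. Ttr, the plasma carrier of thyroxine and of retinol with its binding protein, had an RPKM of 119 and 131 in the scr libraries, 2.59, 0.887 and 0.223 in knockdown 25-3, 50-2 and 50-5, and 170 in wt. It fell by 6.68 on the log2 scale (SE 0.828, edgeR FDR 0.0121), with an FDR of 0.0780 without knockdown 50-2. Alb, which encodes albumin, had an RPKM of 1877 and 2804 in scr, 336, 62.7 and 20.9 in knockdown 25-3, 50-2 and 50-5, and 2424 in wt, with an estimate of -4.08 (SE 1.12, FDR 0.0712, edgeR). Igfbp1, an insulin-like growth factor binding protein made by hepatocytes, had 579 and 907 in scr, 281, 120 and 72.3 in knockdown and 895 in wt, with an estimate of -2.25 (SE 0.570, FDR 0.0605, edgeR). Without knockdown 25-3, Alb (FDR 0.0411) and Igfbp1 (FDR 0.0424) were called, with Alb at -5.82, as they were by DESeq2, with wt added to the controls and by limma with a pseudocount of 1 (Alb also with 0.1). Neither was called with any other single library left out (FDR up to 0.212 for Alb and 0.1999 for Igfbp1). In Ttr, Alb and Igfbp1 all knockdown libraries lay below wt and both scr libraries, and knockdown 50-5 was the lowest. Among the knockdown libraries, 50-5 also had the lowest RPKM of 6 of the 8 factors, but the highest of Foxa1 and Gata4. For Foxa2, Cebpb and Prox1 it lay only 1.26- to 1.28-fold below the mean of the others. How often 50-5 was lowest over all genes tested was not counted. Whether the levels of the factors had a part in those of Ttr, Alb and Igfbp1 was not tested.

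**Figure D5:**
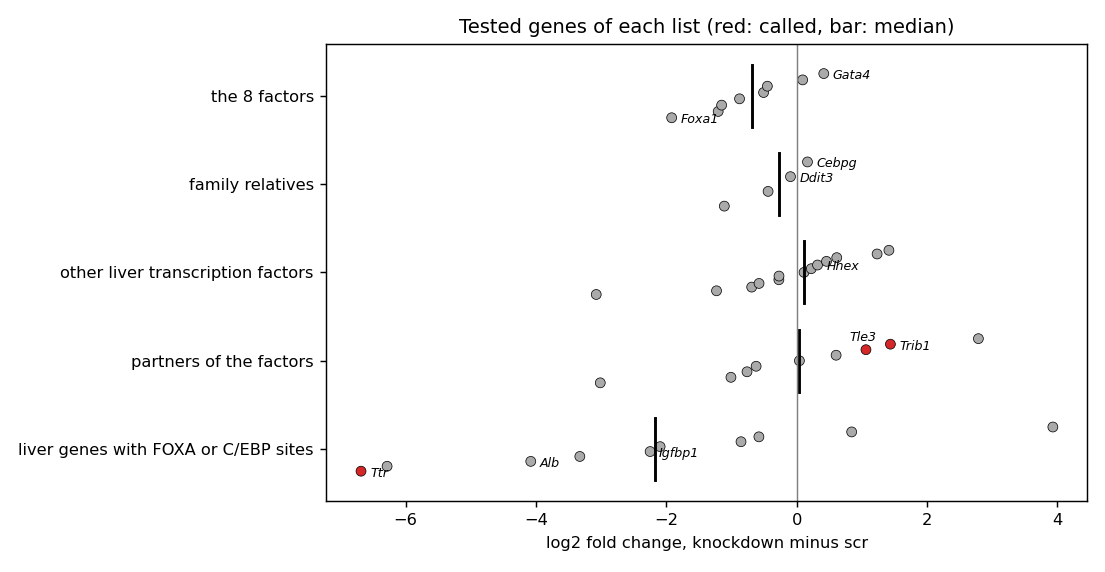
Log2 fold change, knockdown minus scr, of every tested gene in 5 lists (1 point per gene, red where called, black bar for the list's median). None of the 8 factors is called, Trib1 and Tle3 are called among their partners, and the liver genes, with Ttr called, have a median of -2.17.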

How the data were processed

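Per the paper's methods, the authors aligned single-end reads of ribosome-depleted RNA to mm10 with TopHat2, counted them per RefSeq gene with HTSeq and deposited these raw counts, together with RPKM values that they scaled by TMM in edgeR. Whether strand was used in counting is not given in the sources used here, so overlapping genes have uncertain counts. From the values, RPKM was each count divided by exon length and by 1 constant per library.

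Counts were tested with edgeR 4.0.16 in R 4.3.3 (quasi-likelihood, TMM, Benjamini-Hochberg adjustment over the 11577 genes whose RPKM exceeded 1 in any of the 5 compared libraries). A call needed an FDR under 0.05 and a 1.5-fold difference. The paper compares clones sh1 and sh2 with scr, which the labels do not tie to libraries, so all 3 knockdown libraries entered. The standard error is the absolute log2 fold change over the square root of F, and counting intervals are exact. Alternatives used DESeq2 1.42.0 and limma 3.58.1 (pseudocounts 0.1 and 1), other size factors and filters, wt as a control, the number in the titles as a term, and each library left out.

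From each list the text names up to 4 called genes with the largest fold changes and, where fewer than 2 were called, the 2 others with the highest mean RPKM; similar genes were to be named for called members, of which there were 0. One gene that this rule selects is not reported here. Members, lists and tests were chosen with earlier results of these data known. A planned comparison of protein sequences was not run.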

Additional observations from a re-analysis of the deposited data

How the results depend on the processing

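Over 8 members and 14 alternative fits, direction and side of the thresholds were kept in 103 of 112 cases. With DESeq2, 2322 genes and 2 members were called, Foxa1 (-1.92 on the log2 scale) and Prox1 (-1.20). With wt added to the controls, 1 member was called, Foxa1 (-1.72), and Cebpg turned to -0.0091. With the title number as an added term, 807 genes were called. With each library left out in turn, 131 to 2273 genes and 0 to 3 members were called, 131 without knockdown 50-2, 259 without 25-3, 346 without 50-5 and 2273 without scr 25-2. The log2 fold change then ranged from -2.41 to -1.15 for Foxa1, -0.027 to 0.24 for Foxa2, -0.78 to 0.00051 for Cebpb, -1.75 to -0.28 for Prox1 and -0.35 to 0.085 for Ddit3. The causes of these shifts were not tested, and the fits with a library left out also held fewer libraries. A lone scr library was assumed to vary like the knockdown libraries. The groups share no replicate numbers, so the title number, whose meaning is not given, was the only shared label to fit. The order of the members' levels was the same from log2 CPM per kilobase. The scr libraries differed beyond the counting interval in every member but Foxa3, and for Gata4 barely so.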

Other observations

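The following genes of the lists above were not named by the rule and were chosen after their values were seen. Apob, which encodes the main protein of very low-density lipoproteins and is listed among the liver genes, had a positive estimate, with an RPKM of 3.00 and 1.07 in the scr libraries, 52.2, 37.8 and 4.37 in knockdown 25-3, 50-2 and 50-5, and 6.82 in wt (log2 fold change 3.93, FDR 0.0822, edgeR). Haptoglobin (Hp), an acute phase protein, reached an RPKM of 2.58 (scr 25-2) and 62.9 (scr 50-1) in control cells and 1.18, 0.0460 and 0.0449 in knockdown 25-3, 50-2 and 50-5, with 16.8 in wt (FDR 0.0718, edgeR). Zfpm2, a cofactor of GATA factors, had an RPKM of 0.519 and 0.106 in scr and 2.24, 2.98 and 1.36 in knockdown cells, with 0.393 in wt (log2 fold change 2.79, FDR 0.0669, edgeR). Cebpd, another C/EBP factor of the acute phase, had 4.09 and 2.14 in scr and 1.57, 1.52 and 1.28 in knockdown cells, with wt, at 1.76, below both scr libraries (FDR 0.0922, edgeR). None of these passed the thresholds.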
